A study of Mus musculus with 11 samples.

Results

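The MS4A genes described here are Ms4a4b, Ms4a4c, Ms4a4d, Ms4a6b and Ms4a6c, 5 of the 52636 genes in a table of raw counts from 11 RNA sequencing libraries of sorted mouse CD8 T cells. They were picked by symbol, and they were selected on earlier readings of these same libraries. Every level and each of the 3 comparisons between groups therefore counts as used in the choice, no threshold was part of it, and the members' values are given as a description. No p-value is given for a member, and counts of members past the test's threshold stand beside the share of all genes past it, with nothing read from them. All 5 passed the filter on low counts that left 13735 genes for testing.

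The cells were sorted from spleens of C57BL/6 mice. The 4 CD45RBhi libraries and the 4 CD45RBlo libraries hold memory CD8 T cells that bound a tetramer labelled Kb NP396, which carries a peptide of the viral nucleoprotein. They were taken on days 42 to 45 after mice received 200000 pfu of LCMV Armstrong, an acutely infecting virus, into the peritoneum. The 3 naive libraries hold CD44lo CD8 T cells. CD45RB is a form of the phosphatase CD45 that retains exon B, and the study's design sets the memory cells sorted high and low for it against each other and against naive cells. The naive libraries carry the same infection text as the memory libraries and a time entry of 6 to 8 weeks whose meaning is not stated, so age and infection history of the naive mice are not known here. Nothing in the labels says that replicates came from separate mice, and any p-value then measures the spread between these libraries, which may be technical in part.

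MS4A proteins cross the membrane several times with both ends inside the cell. The family includes CD20, encoded by Ms4a1 and used as a B cell marker, and the beta chain of the high-affinity IgE receptor, encoded by Ms4a2 in mast cells and basophils. Family members act as adaptors that sit beside other surface receptors and modulate their signals, and some alter calcium entry. In mouse T cells Ms4a4b is the best-known member: its protein associates with GITR, a costimulatory receptor, and has been linked to restraint of T cell proliferation.

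The libraries held 18024793 to 23151297 counts each. Levels are given as CPM, the count scaled to a common library total, after TMM scaling, and 3 counts in a library, taken as the floor for a gene with none, came to 0.13 to 0.17 CPM. The label of CD8 T cells held: Cd8a, a chain of the CD8 coreceptor, averaged 986 ± 56.9 CPM in CD45RBhi, 980 ± 70.6 CPM in CD45RBlo and 1323 ± 89.1 CPM in naive libraries (SD, n = 4, 4 and 3), while Cd4 had at most 9 counts in a library. Cd44, the adhesion receptor used in the naive sort, averaged 256 ± 57.4 CPM in CD45RBhi, 220 ± 38.7 CPM in CD45RBlo and 14.6 ± 2.87 CPM in naive libraries. Marker lists of other cells differed between the groups in both directions. The summed level of 12 monocyte and macrophage markers was 29.7 to 40.4 CPM in CD45RBhi, 26.7 to 36.9 CPM in CD45RBlo and 50 to 81.8 CPM in naive libraries. Cd68 alone made up 27.3 to 38.7 CPM of it in CD45RBhi, 22.8 to 30 CPM in CD45RBlo and 2.76 to 4.57 CPM in naive libraries, and the other 11 markers summed to 1.74 to 5.82, 3.91 to 7.36 and 46.4 to 77.2 CPM in the same order of groups. The sum of 10 B cell markers was 11.2 to 23.6 CPM in CD45RBhi, 15.7 to 23.8 CPM in CD45RBlo and 55.2 to 64.3 CPM in naive libraries, with Pax5 at 0 in all memory libraries. Cd22 made up 5.92 to 10.6, 9.21 to 18.5 and 0.985 to 2.83 CPM of it, and the other 9 summed to 5.32 to 15.8, 3.9 to 6.49 and 53.4 to 63.3 CPM. Cd68 and Cd22 were singled out after their values were seen. Erythroid and platelet markers summed to 0.304 to 1.62 CPM in CD45RBhi, 0.242 to 25.0 CPM in CD45RBlo and 238 to 524 CPM in naive libraries. Other lists ran the other way in sum. NK cell markers, many of which memory CD8 T cells also express, stood at 4070 to 4370 CPM in CD45RBhi, 4120 to 4540 CPM in CD45RBlo and 887 to 913 CPM in naive libraries. Most of this sum was Nkg7, which averaged 3845, 3998 and 861 CPM in the same order of groups, and Ncr1 had at most 2 counts in a library. CD4 and regulatory T cell markers summed to 9.94 to 14.5, 11.5 to 16.2 and 5.53 to 7.04 CPM. Of the 4 tested, 1 rose and 1 fell in each memory group against naive in edgeR's test. That test called 41.5% of all genes for CD45RBhi and 42.2% for CD45RBlo. Zbtb7b averaged 7.86, 8.59 and 0.102 CPM, whereas Cd4 averaged 0.0373, 0.0971 and 0.224 CPM and Foxp3 0, 0.0236 and 1.09 CPM. Nkg7, Ncr1, Zbtb7b and Foxp3 were also singled out after their values were seen. In such bulk samples fewer cells that express a gene and less RNA per cell cannot be told apart.

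The 21 Ms4a genes of the table lie in 1 cluster on chromosome 19 of GRCm38, chr19:10962293-11640851, and the 5 members occupy 153.7 kb of it, all on the plus strand. Their coding sequences fall into 2 branches. Ms4a4b and Ms4a4c were identical at 91.7% of 678 aligned coding bases, Ms4a4c and Ms4a4d at 86.1%, and Ms4a4b and Ms4a4d at 83.8%. In the other branch Ms4a6b and Ms4a6c were identical at 85.4% of 642 aligned bases, whereas every pair across the branches reached 57.8% to 60.1%. Because the copies are so alike, the counting could split reads between them: of the 50-base windows of its transcripts, 2.40% for Ms4a4b, 8.19% for Ms4a4c, 0.546% for Ms4a4d, 3.57% for Ms4a6b and 10.5% for Ms4a6c also occur in a transcript of another gene, for Ms4a4c in Ms4a4b and Ms4a4d.

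The promoters of the most alike pair and of the Ms4a6 pair are shown because members of each pair differed in level or in response, as described further on. Each sequence is 300 bases of the plus strand, 250 before and 50 after the start site, from RefSeq on GRCm38.p6, and all 5 members were matched. The capitals mark matches to 2 of the motifs that were searched on both strands: GAAANNGAA, the core of an interferon response element, and TGTGGT, a RUNX core, which appears in Ms4a4c on the minus strand.
Ms4a4b, chr19:11443308-11443607: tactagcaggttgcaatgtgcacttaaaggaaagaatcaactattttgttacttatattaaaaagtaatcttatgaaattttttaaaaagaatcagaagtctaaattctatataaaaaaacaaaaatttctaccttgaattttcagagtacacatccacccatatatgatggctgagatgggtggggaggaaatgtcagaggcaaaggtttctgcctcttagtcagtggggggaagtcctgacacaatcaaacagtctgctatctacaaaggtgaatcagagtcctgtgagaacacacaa
Ms4a4c, chr19:11407411-11407710: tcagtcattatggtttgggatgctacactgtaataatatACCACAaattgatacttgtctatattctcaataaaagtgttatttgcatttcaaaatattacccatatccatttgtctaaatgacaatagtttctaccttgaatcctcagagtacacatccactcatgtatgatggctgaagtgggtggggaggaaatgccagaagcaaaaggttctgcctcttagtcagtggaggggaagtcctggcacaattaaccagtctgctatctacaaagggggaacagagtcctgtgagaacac
Ms4a6b, chr19:11518309-11518608: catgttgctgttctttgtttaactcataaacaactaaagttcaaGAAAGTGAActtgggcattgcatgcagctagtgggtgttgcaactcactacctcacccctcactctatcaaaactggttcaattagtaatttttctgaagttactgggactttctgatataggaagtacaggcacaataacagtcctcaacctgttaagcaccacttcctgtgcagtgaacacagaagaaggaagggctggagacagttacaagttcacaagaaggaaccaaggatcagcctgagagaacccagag
Ms4a6c, chr19:11469118-11469417: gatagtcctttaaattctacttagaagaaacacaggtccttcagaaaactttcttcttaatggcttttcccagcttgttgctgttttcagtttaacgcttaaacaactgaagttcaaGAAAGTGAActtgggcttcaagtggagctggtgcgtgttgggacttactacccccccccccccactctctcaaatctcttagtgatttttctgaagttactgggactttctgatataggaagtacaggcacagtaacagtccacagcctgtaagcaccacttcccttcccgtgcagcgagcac

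The Ms4a4b and Ms4a4c promoters were 75.7% identical over 300 bases, and their longest shared run had 20 bases. Those of Ms4a6b and Ms4a6c were 64.0% identical and shared a run of 48 bases, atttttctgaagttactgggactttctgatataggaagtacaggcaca, which lies after the capitals in both. GAAANNGAA occurred in 2 of the 5 member promoters, those of Ms4a6b and Ms4a6c, and in 8.56% of 32851 mouse promoters of the same length. TGTGGT occurred in 1 of the 5, against 16.8% of all promoters, and CTTTGAT, a TCF and LEF site, in 1, that of Ms4a4d, against 3.73%. None of the 5 held AGGTGTNA, a T-box motif (3.03% of all promoters), CCGGAA, an ETS core (14.9%), GGGAAATT, an NF-kappa-B motif (1.01%), or CACCTG, an E box (20.2%). A match describes these letters only and shows neither binding nor its absence, and no 2 of the 7 motifs overlapped in a member.

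Per length of annotated exons (RPKM, the CPM divided by the exon length in kilobases), Ms4a4b and Ms4a6b were the abundant members, Ms4a4c was intermediate, and Ms4a4d and Ms4a6c were scarce. In CD45RBhi libraries the levels were 394 ± 39.5 RPKM for Ms4a4b, 312 ± 24.3 for Ms4a6b, 91.9 ± 4.17 for Ms4a4c, 2.63 ± 0.648 for Ms4a4d and 1.91 ± 0.330 for Ms4a6c (SD, n = 4). In CD45RBlo libraries the same order held, with 379 ± 21.2, 282 ± 24.2, 56.9 ± 9.26, 2.08 ± 0.477 and 1.83 ± 0.154 RPKM (SD, n = 4). The 2 most abundant members did not overlap in either memory group, whereas the ranges of Ms4a4d and Ms4a6c overlapped in both. In naive libraries Ms4a4b at 213 ± 19.3 RPKM and Ms4a6b at 210 ± 14.6 RPKM overlapped, Ms4a4c stood at 66.1 ± 6.43 RPKM, and Ms4a6c at 1.94 ± 0.405 RPKM was above Ms4a4d at 1.19 ± 0.254 RPKM in every library (SD, n = 3). Ranked per length among 52403 genes with an exon length, Ms4a4b stood at places 70 to 107 in CD45RBhi, 74 to 98 in CD45RBlo and 136 to 173 in naive libraries. The exon length of Ms4a4b is the union over its transcripts, 8780 bases, against 678 coding bases, and a shorter main transcript would put its level per length higher. For Ms4a6b the union is 4485 bases, against 732 coding bases, so comparisons of these genes per length depend on the lengths used. In CPM the naive libraries did not overlap, at 1672 to 1984 for Ms4a4b and 878 to 1008 for Ms4a6b. Together the 5 genes took 0.432% to 0.554% of all counts in CD45RBhi, 0.411% to 0.492% in CD45RBlo and 0.284% to 0.332% in naive libraries.

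**Figure D1:**
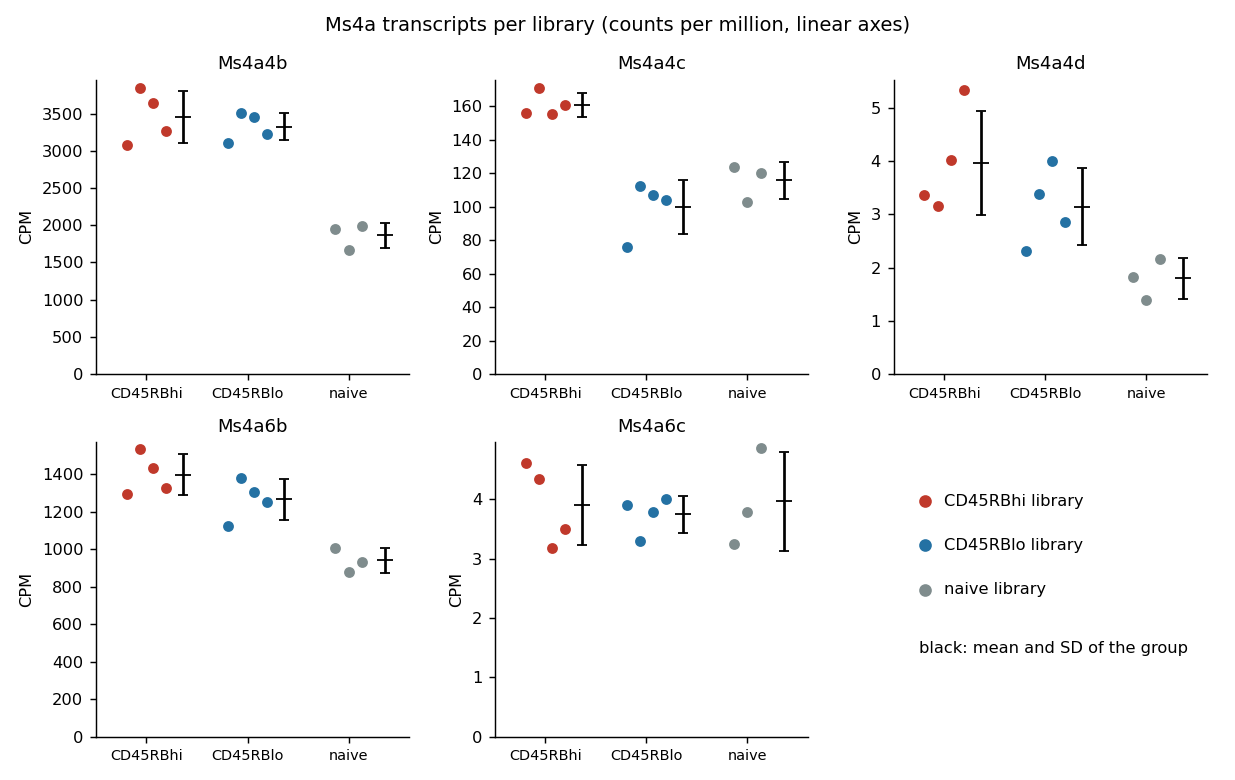
Level of each member in each library in CPM on linear axes that start at 0, with CD45RBhi on the left, CD45RBlo in the middle and naive on the right; points are libraries in the order of their numbers, and black bars are the group mean and SD. Ms4a4b and Ms4a6b were higher in all 8 memory libraries than in the 3 naive ones, Ms4a4c was highest in CD45RBhi, and the groups of Ms4a6c overlapped.

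Ms4a4b, the GITR-associated member, was the most abundant and was higher in both memory populations than in naive cells. Its level was 3083, 3846, 3637 and 3263 CPM in the 4 CD45RBhi libraries, 3110, 3502, 3458 and 3230 CPM in the 4 CD45RBlo libraries and 1943, 1672 and 1984 CPM in the 3 naive libraries. All memory libraries lay above all naive ones, and the 2 memory groups overlapped. The fitted log2 fold change was 0.89 ± 0.091 (SE) for CD45RBhi over naive, 0.83 ± 0.091 for CD45RBlo over naive and 0.06 ± 0.083 for CD45RBhi over CD45RBlo.

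Ms4a6b, the abundant member of the other branch, followed the same pattern with smaller differences. It stood at 1295, 1536, 1433 and 1329 CPM in CD45RBhi libraries, 1124, 1381, 1306 and 1251 CPM in CD45RBlo libraries and 1008, 878 and 934 CPM in naive libraries. Again no memory library reached down to the naive range, and the memory groups overlapped. The log2 fold change was 0.57 ± 0.089 (SE) for CD45RBhi over naive, 0.43 ± 0.088 for CD45RBlo over naive and 0.14 ± 0.081 for CD45RBhi over CD45RBlo. An antisense gene, Gm19261, shares 19 of its exon bases and had at most 173 counts in a library.

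Ms4a4c, the closest relative of Ms4a4b in sequence, did not follow it. Its level was 156, 171, 155 and 161 CPM in CD45RBhi libraries, 76.0, 112, 107 and 104 CPM in CD45RBlo libraries and 124, 103 and 120 CPM in naive libraries. Every CD45RBhi library was above every CD45RBlo and every naive library, while CD45RBlo and naive overlapped, with CD45RBlo replicate 1 lowest of all. The log2 fold change was 0.47 ± 0.12 (SE) for CD45RBhi over naive, -0.21 ± 0.12 for CD45RBlo over naive and 0.69 ± 0.11 for CD45RBhi over CD45RBlo. Without CD45RBlo replicate 1 the last of these was 0.58.

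Ms4a4d was scarce, with 67 to 102 counts in CD45RBhi libraries, 41 to 75 in CD45RBlo libraries and 27 to 44 in naive libraries. In levels these were 3.36, 3.17, 4.03 and 5.34 CPM in CD45RBhi, 2.32, 3.39, 4.0 and 2.86 CPM in CD45RBlo and 1.83, 1.40 and 2.17 CPM in naive libraries. Both memory groups lay above the naive range, narrowly for CD45RBlo replicate 1, and they overlapped each other. The log2 fold change was 1.14 ± 0.28 (SE) for CD45RBhi over naive, 0.80 ± 0.28 for CD45RBlo over naive and 0.33 ± 0.25 for CD45RBhi over CD45RBlo.

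Ms4a6c was as scarce and overlapped in all 3 groups. It stood at 4.61, 4.34, 3.18 and 3.51 CPM in CD45RBhi, 3.91, 3.29, 3.79 and 4.01 CPM in CD45RBlo and 3.24, 3.79 and 4.87 CPM in naive libraries. The log2 fold change was -0.02 ± 0.22 (SE) for CD45RBhi over naive, -0.08 ± 0.22 for CD45RBlo over naive and 0.06 ± 0.20 for CD45RBhi over CD45RBlo. Its counts are uncertain, since 53.1% of its exon bases lie within exons of BE692007 on the other strand and the strandedness of the counting is not given in the sources used here. BE692007 had 651 to 1015 counts in CD45RBhi, 569 to 975 in CD45RBlo and 805 to 1222 in naive libraries, against 64 to 100, 68 to 87 and 71 to 99 for Ms4a6c. The monocyte and macrophage markers other than Cd68 were higher in the naive libraries, and their part in the Ms4a6c level was not tested.

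The counts of members past an adjusted p of 0.05 in edgeR's quasi-likelihood test are given beside the share of all genes that passed it, and since the members were selected on these comparisons nothing is read from them. For CD45RBhi over naive, 4 of 5 members passed, all higher, namely Ms4a4b, Ms4a4c, Ms4a4d and Ms4a6b, against 41.5% of the 13735 genes tested in either direction and 22.3% higher. For CD45RBlo over naive, 3 of 5 passed, all higher, namely Ms4a4b, Ms4a4d and Ms4a6b, against 42.2% of genes in either direction and 22.4% higher. For CD45RBhi over CD45RBlo, 1 of 5 passed, Ms4a4c, higher, against 0.124% of genes. With the replicate number as a block, the same member passed, against 5.59% of 12637 genes. The members that passed without the block were also those whose groups did not overlap. This rests on the same values, and the share of all genes without overlap was not computed. The median log2 fold change of the 5 was 0.57, 0.43 and 0.14 in the 3 comparisons, against -0.0077, -0.0082 and -0.0042 over all genes tested. The first 2 comparisons share the naive libraries.

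Without the replicate block, the call of Ms4a4c between the memory groups was close to the threshold. The fits that left out a library had no block. The count of members called was 0 when any 1 of the 4 CD45RBhi libraries, or CD45RBlo replicate 3 or 4, was left out, although the log2 fold change of Ms4a4c stayed between 0.58 and 0.75 over the left-out libraries. The call of Ms4a4d for CD45RBlo over naive was lost without naive replicate 1 or 2 or CD45RBlo replicate 2, 3 or 4, and its log2 fold change ranged over 0.66 to 0.96 as each library was left out.

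**Figure D2:**
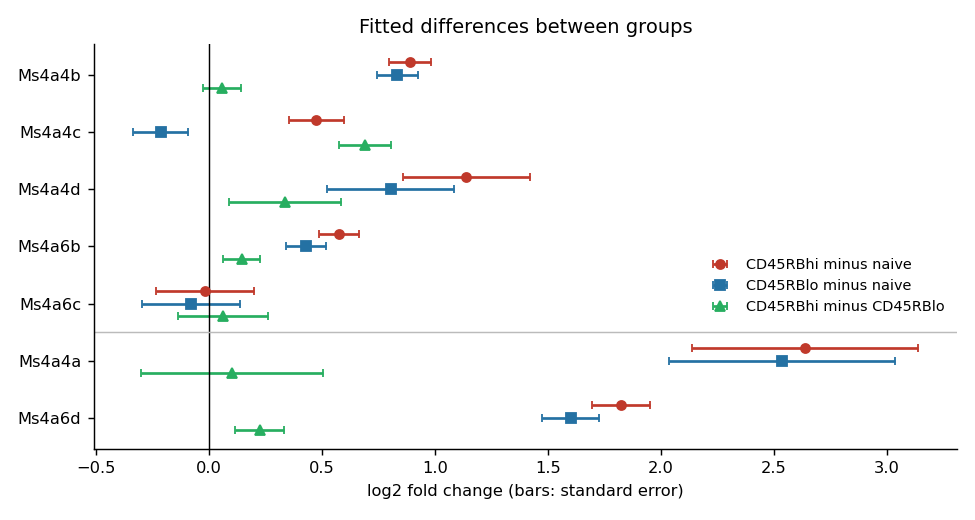
Fitted log2 fold change of each gene with its standard error; circles are CD45RBhi minus naive, squares CD45RBlo minus naive and triangles CD45RBhi minus CD45RBlo, and the grey line parts the 5 members from the relatives Ms4a4a and Ms4a6d. Ms4a4c is the member whose CD45RBlo value lies below 0 (-0.21) while its CD45RBhi value lies above it (0.47), and the relatives lie between 1.60 and 2.64 in the comparisons with naive.

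Ratios of 2 members within a library do not depend on how libraries are scaled. Ms4a4c had 5.05, 4.45, 4.28 and 4.93 counts per 100 Ms4a4b counts in CD45RBhi, 2.44, 3.20, 3.09 and 3.21 in CD45RBlo and 6.38, 6.15 and 6.07 in naive libraries. The 3 groups did not overlap: the ratio was highest in naive cells and lowest in CD45RBlo cells. Ms4a6b had 39.4 to 42.0 counts per 100 Ms4a4b counts in CD45RBhi, 36.1 to 39.4 in CD45RBlo and 47.1 to 52.5 in naive libraries, so that the memory groups met and the naive group stood apart. Ms4a4b made up 68.8% ± 0.714 of the members' counts in CD45RBhi, 70.8% ± 0.896 in CD45RBlo and 63.7% ± 1.24 in naive libraries (SD, n = 4, 4 and 3). The ratio of Ms4a4d to Ms4a4b, at 0.824 to 1.64 counts per 1000 in CD45RBhi, 0.747 to 1.16 in CD45RBlo and 0.837 to 1.09 in naive libraries, overlapped in all groups. These ratios rest on the values that chose the members and are descriptions.

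**Figure D3:**
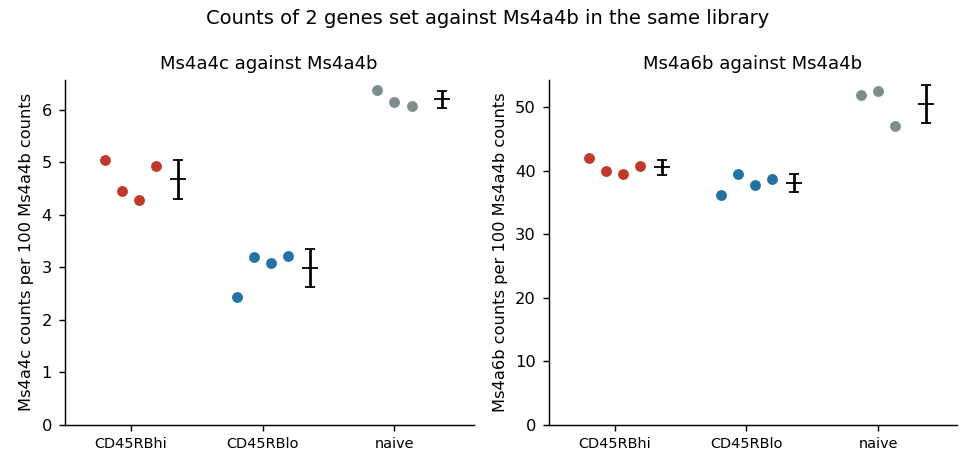
Counts of Ms4a4c (left panel) and Ms4a6b (right panel) per 100 Ms4a4b counts of the same library, on linear axes that start at 0, with CD45RBhi left, CD45RBlo in the middle and naive right; black bars are the mean and SD. Ms4a4c per 100 Ms4a4b was 4.28 to 5.05 in CD45RBhi, 2.44 to 3.21 in CD45RBlo and 6.07 to 6.38 in naive libraries.

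Memory libraries with the same number deviated together, so the differences can also be read within numbered pairs. Ms4a4c was higher in CD45RBhi than in CD45RBlo in 4 of 4 pairs, by 1.04, 0.61, 0.54 and 0.63 on the log2 scale. Ms4a6b was higher in 4 of 4 pairs as well, by the smaller amounts of 0.20, 0.15, 0.13 and 0.09. Ms4a4b was higher in 3 of 4, with differences of -0.01 to 0.14. For the scarce members the pairs disagreed in sign, at -0.10 to 0.90 for Ms4a4d and -0.25 to 0.40 for Ms4a6c. The standard error of the Ms4a4c fold change was 0.078 with the pairs as a block, against 0.11 without.

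**Figure D4:**
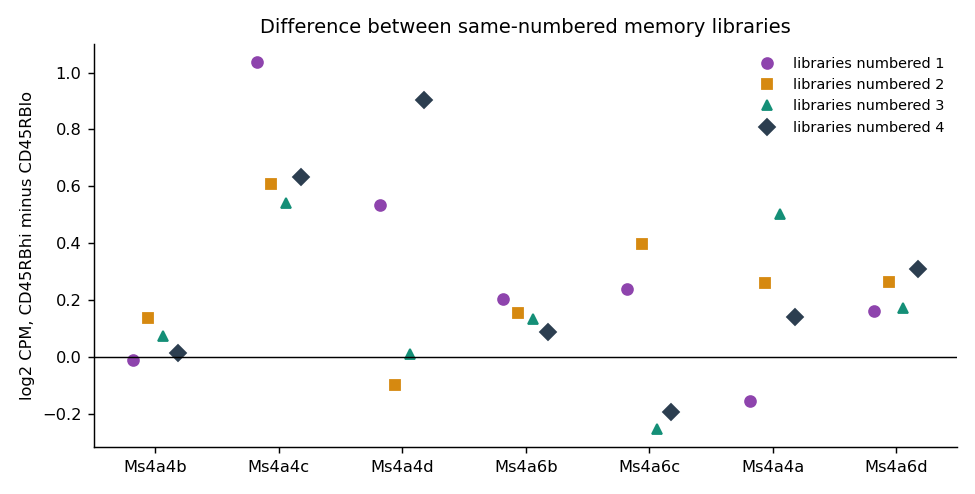
Difference in log2 CPM between the CD45RBhi and the CD45RBlo library of the same number, 1 point per pair, for the 5 members and the relatives Ms4a4a and Ms4a6d; the line marks no difference. All 4 pairs lie above the line for Ms4a4c (0.54 to 1.04), Ms4a6b and Ms4a6d, and pairs lie on both sides for the other genes.

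Of the other 16 Ms4a genes in the table, 10 had no count in any library, among them Ms4a2, Ms4a3 and Ms4a5, 3 had too few counts to test and 3 were tested. Ms4a7, a gene of macrophages and microglia, had 0, 0, 4 and 1 counts in CD45RBhi libraries, 0 in every CD45RBlo library and 3, 5 and 1 in naive libraries. Ms4a8a had at most 7, 5 and 2 counts in a CD45RBhi, CD45RBlo and naive library, and Ms4a15 had at most 0, 7 and 3. Ms4a6d, a macrophage gene in mice that was not among the genes chosen, was higher in both memory populations. Its level was 31.9, 26.7, 30.3 and 29.5 CPM in CD45RBhi, 28.6, 22.2, 26.9 and 23.8 CPM in CD45RBlo and 8.31, 7.73 and 9.01 CPM in naive libraries. No memory library came near the naive range. In edgeR's test the log2 fold change was 1.82 ± 0.13 (SE, adjusted p = 1.725e-07) for CD45RBhi over naive and 1.60 ± 0.13 (adjusted p = 5.356e-07) for CD45RBlo over naive. Between the memory groups it was 0.22 ± 0.11 (adjusted p = 0.578), higher in CD45RBhi in 4 of 4 pairs and not past the threshold, also with the pairs as a block (0.23 ± 0.087, adjusted p = 0.151). Per 1000 Ms4a6b counts there were 17.4 to 24.7 Ms4a6d counts in CD45RBhi, 16.1 to 25.4 in CD45RBlo and 8.24 to 9.64 in naive libraries.

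Ms4a4a, whose human counterpart is a surface protein of macrophages, was also higher in memory cells and varied more. It stood at 18.5, 6.38, 10.7 and 8.58 CPM in CD45RBhi, 20.6, 5.33, 7.58 and 7.78 CPM in CD45RBlo and 1.87, 1.45 and 1.97 CPM in naive libraries. Replicate 1 was the highest of its group in both memory groups, and all memory libraries were above the naive ones. The log2 fold change in edgeR's test was 2.64 ± 0.50 (SE, adjusted p = 0.0009985) for CD45RBhi over naive, 2.54 ± 0.50 (adjusted p = 0.001243) for CD45RBlo over naive and 0.10 ± 0.40 (adjusted p = 0.964) for CD45RBhi over CD45RBlo. Without both memory libraries numbered 1, an alternative added after seeing the data, it was 2.27 (adjusted p = 4.347e-05) and 1.96 (adjusted p = 0.0001215) over naive. Of the 12 monocyte and macrophage markers, 9 were tested, and 8 fell in each memory group against naive by that test. In either direction it called 41.5% of all genes for CD45RBhi over naive and 42.2% for CD45RBlo over naive. Cd68, a lysosomal protein also made outside macrophages, rose, at 31.8 CPM in CD45RBhi, 27.5 CPM in CD45RBlo and 3.65 CPM in naive libraries. Csf1r, another marker of the list, averaged 0.611 CPM in CD45RBhi, 1.60 CPM in CD45RBlo and 14.0 CPM in naive libraries. The part of monocytes and macrophages in the Ms4a6d and Ms4a4a levels was not tested.

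**Figure D5:**
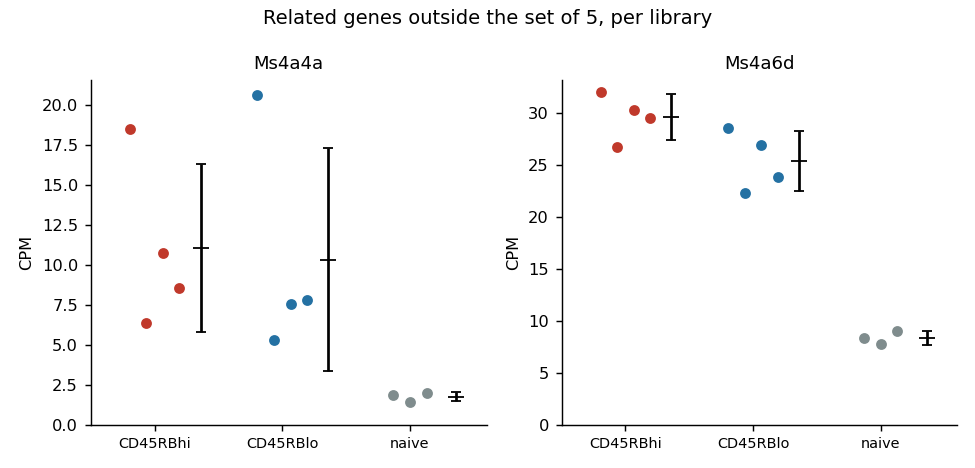
Level of Ms4a4a (left) and Ms4a6d (right) in each library in CPM, on linear axes that start at 0, with CD45RBhi left, CD45RBlo in the middle and naive right; points are libraries in the order of their numbers and black bars the mean and SD. The highest naive library had 1.97 CPM of Ms4a4a and 9.01 CPM of Ms4a6d, below every memory library.

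Ms4a1, which encodes CD20, was seen mainly in naive libraries. It had 37, 0, 0 and 1 counts in CD45RBhi, 0, 0, 0 and 3 in CD45RBlo and 74, 44 and 69 in naive libraries. CD45RBhi replicate 1 alone among the memory libraries held more than 3 counts. In edgeR's test it was lower in CD45RBlo than in naive libraries (adjusted p = 0.00424), and the difference for CD45RBhi was not past the threshold (adjusted p = 0.0615) but was without CD45RBhi replicate 1 (adjusted p = 7.073e-05). The 9 B cell markers other than Cd22, of which Ms4a1 is 1, summed higher in the naive libraries too, and their part in the Ms4a1 counts was not tested. Between the memory groups none of the 3 tested relatives passed in edgeR (1 of 3 had an unadjusted p under 0.05, Ms4a1) or in DESeq2.

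The other genes in and around the cluster were read to see whether they moved with the members. From 500 kb before the cluster to 500 kb after it, the table held 40 other protein-coding genes, of which 20 were tested. Among them Gm8369 lies inside the cluster, between Ms4a6c and Ms4a6b, and shares 50-base windows with Ms4a4b. It averaged 133 CPM in CD45RBhi, 127 CPM in CD45RBlo and 118 CPM in naive libraries. For CD45RBhi over naive 7 rose and 1 fell, and for CD45RBlo over naive 7 rose and 1 fell, that is 8 of 20 in each, against 41.5% and 42.2% of all genes. The median log2 fold change of the 20 was 0.15 and 0.23. Slc15a3, a lysosomal transporter of peptides and histidine, averaged 7.27 CPM in CD45RBhi, 5.97 CPM in CD45RBlo and 0.0665 CPM in naive libraries, with adjusted p = 6.667e-08 and 9.327e-08 over naive. Tmem109, a membrane channel protein, averaged 185, 181 and 85.4 CPM in these groups (log2 fold change 1.12 and 1.08, adjusted p = 1.996e-06 and 2.445e-06). Mrpl16, a mitochondrial ribosomal protein, Sdhaf2, an assembly factor of succinate dehydrogenase, and Vps37c, a subunit of the ESCRT-I sorting complex, rose by 0.44, 0.38 and 0.51 in CD45RBhi and 0.37, 0.37 and 0.51 in CD45RBlo on the log2 scale (adjusted p = 0.00208 to 0.00611). Ccdc86, a nucleolar protein, fell by 0.49 in CD45RBlo (adjusted p = 0.00815) and had -0.30 in CD45RBhi (adjusted p = 0.0778). Between the memory groups 0 of 20 passed in edgeR, 0 had an unadjusted p under 0.05, and DESeq2 called 0. With the replicate number as a block, 4 and 5 neighbours were called over naive.

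A list of 10 genes around GITR, store-operated calcium entry and the cell cycle was also read, of which 9 were tested. It includes Tbx21, which belongs to none of these themes. In each memory group against naive 3 rose and 1 fell, against 41.5% and 42.2% of all genes called. Tbx21, encoding the transcription factor T-bet, averaged 843 CPM in CD45RBhi, 867 CPM in CD45RBlo and 15.1 CPM in naive libraries (log2 fold change 5.80 and 5.84, adjusted p = 1.051e-11 and 9.390e-12 in edgeR). Stim2, a calcium sensor of the endoplasmic reticulum, and Orai3, a calcium channel subunit, rose by 0.55 and 0.56 in CD45RBhi and by 0.57 and 0.52 in CD45RBlo, and Orai2, another channel subunit, fell by 0.50 and 0.32. Tnfrsf18, which encodes GITR itself, averaged 71.6 CPM in CD45RBhi, 60 CPM in CD45RBlo and 59.3 CPM in naive libraries and did not pass against naive (log2 fold change 0.27 ± 0.20 and 0.02 ± 0.20, SE). Between the memory groups 0 of 9 passed in edgeR (1 had an unadjusted p under 0.05, and DESeq2 called 0). With the replicate number as a block Tnfrsf18 was higher in CD45RBhi by 0.26 (adjusted p = 0.0451).

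Interferon-stimulated genes were read as a second list of 18, all tested. For CD45RBhi over naive 2 rose and 10 fell, and for CD45RBlo over naive 2 rose and 9 fell, against 41.5% and 42.2% of all genes called in either direction, and the median log2 fold changes were -0.67 and -0.55. Irf9, a subunit of the interferon-activated transcription factor, fell by 0.83 in CD45RBhi and 0.74 in CD45RBlo, and Ifit1, an antiviral RNA-binding protein, fell by 1.77 and 1.46. Ifi27l2a fell by 1.68 and 1.32, whereas Oas1a, an antiviral oligoadenylate synthetase, rose by 1.71 and 1.67. Between the memory groups 0 of 18 passed in edgeR, 4 had an unadjusted p under 0.05, and DESeq2 called 1. With the replicate number as a block 4 passed: Usp18, a protease that limits interferon signalling, was higher in CD45RBhi by 0.58 (adjusted p = 0.00096), and Stat2, Mx1 and Ifi27l2a were lower by -0.36, -0.49 and -0.36 (adjusted p = 0.00617, 0.0385 and 0.0251). The TMEM176 genes, distant relatives of the family, had 0 of 2 called in each comparison by edgeR and by DESeq2, with no unadjusted p under 0.05, and Tmem176b averaged 3.28 CPM in CD45RBhi, 4.16 CPM in CD45RBlo and 4.62 CPM in naive libraries.

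The genes whose pattern over the 11 libraries was most like each member were found by the root mean square (RMS) difference of mean-centred log2 CPM among 8399 tested genes with a mean of at least 10 CPM. The points share libraries, depth and scaling, and the values are descriptions. Ms4a4b was closest to Ptpn22, a phosphatase that restrains T cell receptor signalling (RMS 0.0794, r = 0.980), and then to Leprot and Glmp, which encode proteins of endosomes and lysosomes (RMS 0.0849 and 0.0874). Ms4a6b was closest to Pold3, a subunit of DNA polymerase delta (RMS 0.0670, r = 0.965), Ppil1 and Rbm43. Ms4a4c was closest to Ly6e, an interferon-inducible surface protein held by a lipid anchor (RMS 0.166, r = 0.899), Ogfod3 and Trim13. Ly6e stood higher in the CD45RBhi than in the CD45RBlo libraries, by 0.50 ± 0.073 (SE). Since it was picked for its likeness to Ms4a4c over these same libraries, nothing is read from this difference. Ms4a4d was closest to Rom1, Espn and the T cell receptor segment Trbv13-3 (RMS 0.215 to 0.227), and Ms4a6c to Swt1, Vps13a and Pbrm1 (RMS 0.118 to 0.124). Among the members, Ms4a4b and Ms4a6b were the most alike pair (RMS 0.174, r = 0.958), although they belong to different branches, whereas Ms4a4b and Ms4a4c, the most alike in sequence, differed by an RMS of 0.445 (r = 0.281).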

How the data were processed

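RNA from sorted spleen CD8 T cells was sequenced in 11 libraries. The authors deposited these as unnormalized raw counts, 1 column a library and 1 row an Ensembl gene. Per the submitters' processing notes, GRCm38 (mm10) was the genome, and featureCounts, SAMtools and DESeq2 were among the tools. Neither the aligner nor the annotation release nor the strandedness is given in the sources used here, so reads of overlapping or near-identical genes may be assigned either way.

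Counts were filtered with filterByExpr (minimum count 10), scaled by TMM and fitted with edgeR 4.0.16 in R 4.3.3 as 1 model of group means over all 11 libraries, with quasi-likelihood F tests and Benjamini-Hochberg adjustment over 13735 genes at 0.05. The SE of a log2 fold change is its size over the square root of F. No 2 replicate libraries were alike within counting noise (chi-square per degree of freedom 9.43 to 84.7 over 15 pairs). Depth was 18024793 to 23151297 counts per library, and the floor of 3 counts covers counting error only. The code of the fit was run on counts simulated from its own kind of model with known changes, which cannot show whether that model suits these libraries. Exon lengths came from GENCODE M21 (52403 of 52636 IDs matched), and promoters from RefSeq. Coding identity was taken from global alignments in Biopython 1.88; it replaces a planned comparison of proteins.

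The members and lists were chosen with earlier results of these data known. Named genes were the members, relatives with a count, up to 4 genes per list and comparison and up to 6 neighbours by smallest p, and the 3 genes most like each member. Deviations from group means correlated at 0.191 to 0.452 between same-numbered CD45RBhi and CD45RBlo libraries and at -0.331 to 0.0284 between others, and 8 of 8 memory libraries matched their own number best, so the numbers were taken to pair memory libraries, from the data and not the labels. Memory and naive libraries of 1 number correlated at -0.101 to 0.0565 and were not treated as pairs. Alternatives were other scalings, no filter, DESeq2 1.42.0, only the 2 groups compared, the replicate block and leaving out each library.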

Additional observations from a re-analysis of the deposited data

Results flagged for a closer look

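Ms4a1, the CD20 gene, had 1.86 CPM in CD45RBhi replicate 1, against 0 to 0.0523 CPM in the other 3 CD45RBhi libraries, which makes that library stand far from its group. The 9 B cell markers other than Cd22 summed to 15.8 CPM in it, of which Cd79b gave 10.4 CPM, and to 5.32 to 6.9 CPM in the other CD45RBhi libraries. In CD45RBlo libraries they summed to 3.9 to 6.49 CPM.

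Ms4a4a had 20.6 CPM in CD45RBlo replicate 1, against 5.33 to 7.78 CPM in the other 3 CD45RBlo libraries. The CD45RBhi library of the same number was the highest of its group as well, at 18.5 CPM against 6.38 to 10.7 CPM. The 11 monocyte and macrophage markers other than Cd68 were also highest in the libraries numbered 1, at 5.82 CPM in CD45RBhi and 7.36 CPM in CD45RBlo. The other CD45RBhi libraries had 1.74 to 4.92 CPM and the other CD45RBlo libraries 3.91 to 5.14 CPM. So was the sum of dendritic cell markers, at 16.5 CPM against 8.59 to 9.99 CPM in CD45RBhi. In CD45RBlo it was 15.6 CPM against 10.6 to 13.1 CPM. Most of the sum in the memory groups was Xcr1, which averaged 7.95 CPM in CD45RBhi, 9.78 CPM in CD45RBlo and 1.12 CPM in naive libraries. The whole list summed to 15.9 to 19.6 CPM in naive libraries. Xcr1 was singled out after its values were seen, and the sum without it was not computed. Erythroid and platelet markers summed to 25.0 CPM in CD45RBlo replicate 1 against 0.242 to 1.01 CPM, but to 0.752 CPM in CD45RBhi replicate 1 against 0.304 to 1.62 CPM. Basophil and mast cell markers were lowest in the libraries numbered 1, at 0.502 and 0.397 CPM. The part of any of these in the Ms4a4a level was not tested. Per 1000 Ms4a4b counts there were 6.00 and 6.63 Ms4a4a counts in the CD45RBhi and CD45RBlo libraries numbered 1. For normally spread values chance alone marks about 1 in 20 sets of a gene in a group in this way, and 15 such sets were looked at. That rate need not hold for Ms4a1, whose counts were mostly near 0 in the memory libraries.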

How the results depend on the processing

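Scaling by library size only moved the median of all genes by -0.147 for CD45RBhi over naive and -0.135 for CD45RBlo over naive, and gave log2 fold changes of 0.74 for Ms4a4b, 0.33 for Ms4a4c and 0.43 for Ms4a6b in CD45RBhi over naive and of 0.70 for Ms4a4b and 0.30 for Ms4a6b in CD45RBlo over naive. Under that scaling Ms4a4c was called lower in CD45RBlo (-0.35), Ms4a4d was not called there, and Ms4a4c was not called for CD45RBhi over naive. Members called between the memory groups numbered 0 under that scaling and 0 with only the 2 groups fitted, and ranged over 0 to 1 when each library was left out. Called neighbours numbered 5 with library size only in CD45RBlo over naive; with the replicate block they numbered 4 in CD45RBhi and 5 in CD45RBlo. The block also dropped Ms4a4d in both comparisons with naive, where the numbers do not pair the libraries, and changed no other call of a member. With no filter on low counts Ms4a4d was not called in CD45RBlo over naive. The difference between memory groups changed sign for Ms4a4a and Ms4a1 over the left-out libraries (-0.27 to 0.68 and -0.97 to 6.25), as did all 3 differences of Ms4a6c (-0.14 to 0.16 for CD45RBhi over naive, -0.21 to 0.10 for CD45RBlo over naive and -0.03 to 0.15 between memory groups). The Ms4a1 difference between memory groups was -1.30 without both libraries numbered 1, an alternative chosen after seeing the data. The causes were not tested. Ms4a4d and Ms4a6c rest on at most 102 and 100 counts in a library.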
